A study of Homo sapiens with 2 samples.

Results

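The RAB genes encode the largest branch of the small GTPases, the proteins that give membrane vesicles their identity and direct them to a target. The members were all genes of type protein_coding in GENCODE release 44 whose symbol is RAB followed by a number, with at most 1 further letter and 1 further digit. This rule found 63 genes among the 58735 genes of the tables, and all 63 were present in both tables. The RNA came from MCF10a-Snail-ER, a line derived from MCF10a, which are non-tumorigenic human mammary epithelial cells, that stably carries the epithelial repressor Snail fused to the estrogen receptor. Before RNA was taken for either library the cells had 1 day of 100 nM tamoxifen, which activates the Snail fusion and sets off an epithelial-to-mesenchymal transition, in medium with horse serum, EGF, hydrocortisone, cholera toxin and insulin. The series describes the 2 polyadenylated RNA samples as matched. One library was read as native strands on a MinION with a direct RNA kit (Nanopore), and the other was a TruSeq stranded mRNA library (Illumina). Each platform has a single library, and both were treated, so what follows compares these 2 libraries, without a replicate, and says nothing about the effect of Snail.

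A RAB protein is a switch. Bound to GDP it is held in the cytosol by an escort protein, and an exchange factor loads it with GTP on the right membrane, where it recruits effectors such as tethers and motors. A GTPase-activating protein then switches it off. Each compartment has its own members. RAB5 marks early endosomes, RAB4 and RAB11 return receptors and integrins to the surface, RAB7 leads to lysosomes, RAB1, RAB2 and RAB6 serve traffic between endoplasmic reticulum (ER) and Golgi, and RAB3, RAB8, RAB10, RAB13 and RAB27 serve secretion. RAB25, also called RAB11C, is an epithelial relative of RAB11A and RAB11B that is known for carrying integrins in epithelial and tumour cells. RAB17 is another recycling member of polarized epithelia.

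By Nanopore 403235 counts fell on genes, and by Illumina 191741714, so 1 Nanopore count stood for 2.48 counts per 1000000 (CPM). Basal mammary markers were present, with KRT5 at 680 Nanopore and 277508 Illumina counts, and all 6 of that list were detected in both libraries. Of 8 general epithelial markers, 6 were detected by Nanopore and 7 by Illumina, GRHL2 was listed at 0 in both and CLDN4 had 19 Illumina counts only. All 5 mesenchymal markers were detected in both libraries. Of 9 markers of blood, endothelial, liver and melanocyte cells, 2 were detected by Nanopore and 7 by Illumina, with summed levels of 64.5 and 53.1 CPM. CD68 alone, with 13 and 8643 counts, made 32.2 and 45.1 CPM of these, and PECAM1 had 0 and 973 counts. Of the melanocyte genes TYR was listed at 0 in both, MITF had 0 and 447 counts, and PMEL had 13 and 96, called higher by Nanopore. The body of PMEL overlaps 2 other genes. The part of PMEL in any result was not tested.

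The coding sequences are shown because they set how far close relatives can be told apart. All lengths and stretches here come from the canonical transcript of each gene in GENCODE 44, with positions counted from 1 at the first base of the start codon. The motif TGGGANACNGCNGG, in which N is any base and which covers the conserved GTP-binding stretch of the family, was found on the sense strand in the coding sequence of 55 of the 63 members, and in 0.599% of the canonical transcripts of all 20046 protein-coding genes. On either strand it was in 0.778% of these. It was not found, as spelled, in RAB7B, RAB28, RAB29, RAB32, RAB38, RAB40A, RAB40B and RAB40C. The stretches of 60 bases around the motif are shown for RAB11A (bases 169 to 228), RAB11B (169 to 228) and RAB25 (172 to 231), with capitals for bases that differ from RAB11A.
RAB11A: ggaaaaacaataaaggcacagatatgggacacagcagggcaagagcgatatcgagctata
RAB11B: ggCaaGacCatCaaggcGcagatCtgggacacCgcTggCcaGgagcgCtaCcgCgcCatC
RAB25: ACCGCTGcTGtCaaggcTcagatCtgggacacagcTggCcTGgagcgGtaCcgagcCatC
RAB11B differed from RAB11A at 15 of the 60 bases and RAB25 at 20. Over the whole coding sequence RAB25 was 67.5% identical to RAB11A, and its longest identical run with RAB11A was 14 bases. As background, RAB25 is known to carry leucine in place of the glutamine that most RAB proteins use for GTP hydrolysis. No 50-base word of the exons of RAB25 occurred in another annotated gene.

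RAB6A, RAB6C and RAB6D show the opposite case. RAB6C and RAB6D are intronless relatives of RAB6A, with coding sequences 91.8% and 92.0% identical to it and 99.5% identical to each other. The longest run that RAB6A and RAB6C share is 85 bases (bases 280 to 364 of each), shown with the same positions of RAB6D, where a capital marks a difference from RAB6A.
RAB6A: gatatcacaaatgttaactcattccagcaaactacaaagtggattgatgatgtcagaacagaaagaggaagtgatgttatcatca
RAB6C: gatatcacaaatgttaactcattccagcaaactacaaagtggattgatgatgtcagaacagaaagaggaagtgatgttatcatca
RAB6D: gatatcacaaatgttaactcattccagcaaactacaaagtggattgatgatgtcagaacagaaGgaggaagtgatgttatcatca
RAB6A had 24 Nanopore and 19042 Illumina counts. RAB6C had 0 and 150 counts, and RAB6D 0 and 106. With 66.1% of the 50-base words of RAB6C and 47.3% of those of RAB6D found in another gene, the low Illumina counts of these 2 genes are uncertain.

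The first comparison was which RAB genes were expressed in each library. At least 1 count was present for 44 of the 63 members by Nanopore (69.8%) and for 59 by Illumina (93.7%). The same share was 26.7% by Nanopore and 46.5% by Illumina over all 58735 genes, and 59.2% and 78.3% over protein-coding genes. No member had Nanopore counts alone. If each Nanopore count were drawn at the Illumina share of its gene, 47.0 members would be detected on average. The 15 members with Illumina counts only were RAB3A, RAB3B, RAB6C, RAB6D, RAB9B, RAB20, RAB25, RAB33A, RAB36, RAB37, RAB39A, RAB39B, RAB40A, RAB40C and RAB41. Their Illumina counts ran from 1 (RAB33A) to 1178 (RAB40C), with a median of 106. In between were 920 for RAB36, 835 for RAB20, 209 for RAB39B, 182 for RAB3A, 178 for RAB9B, 150 for RAB6C, 106 for RAB6D, 103 for RAB41, 56 for RAB25, 55 for RAB40A, 14 for RAB37, 5 for RAB39A and 2 for RAB3B. Together the 15 would be expected to give 8.40 Nanopore counts. Since they were picked by a Nanopore count of 0, that sum does not measure a shortfall. At this depth their absence by Nanopore was not distinguishable from a low level, since 0 counts allow up to 7.44 CPM (3 counts of the total, counting error only). The last 4, RAB3C, RAB19, RAB42 and RAB44, were listed at 0 in both libraries. RAB3A, RAB3B and RAB3C are best known from regulated secretion in neurons and endocrine cells, and RAB37 from secretory granules.

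**Figure D1:**
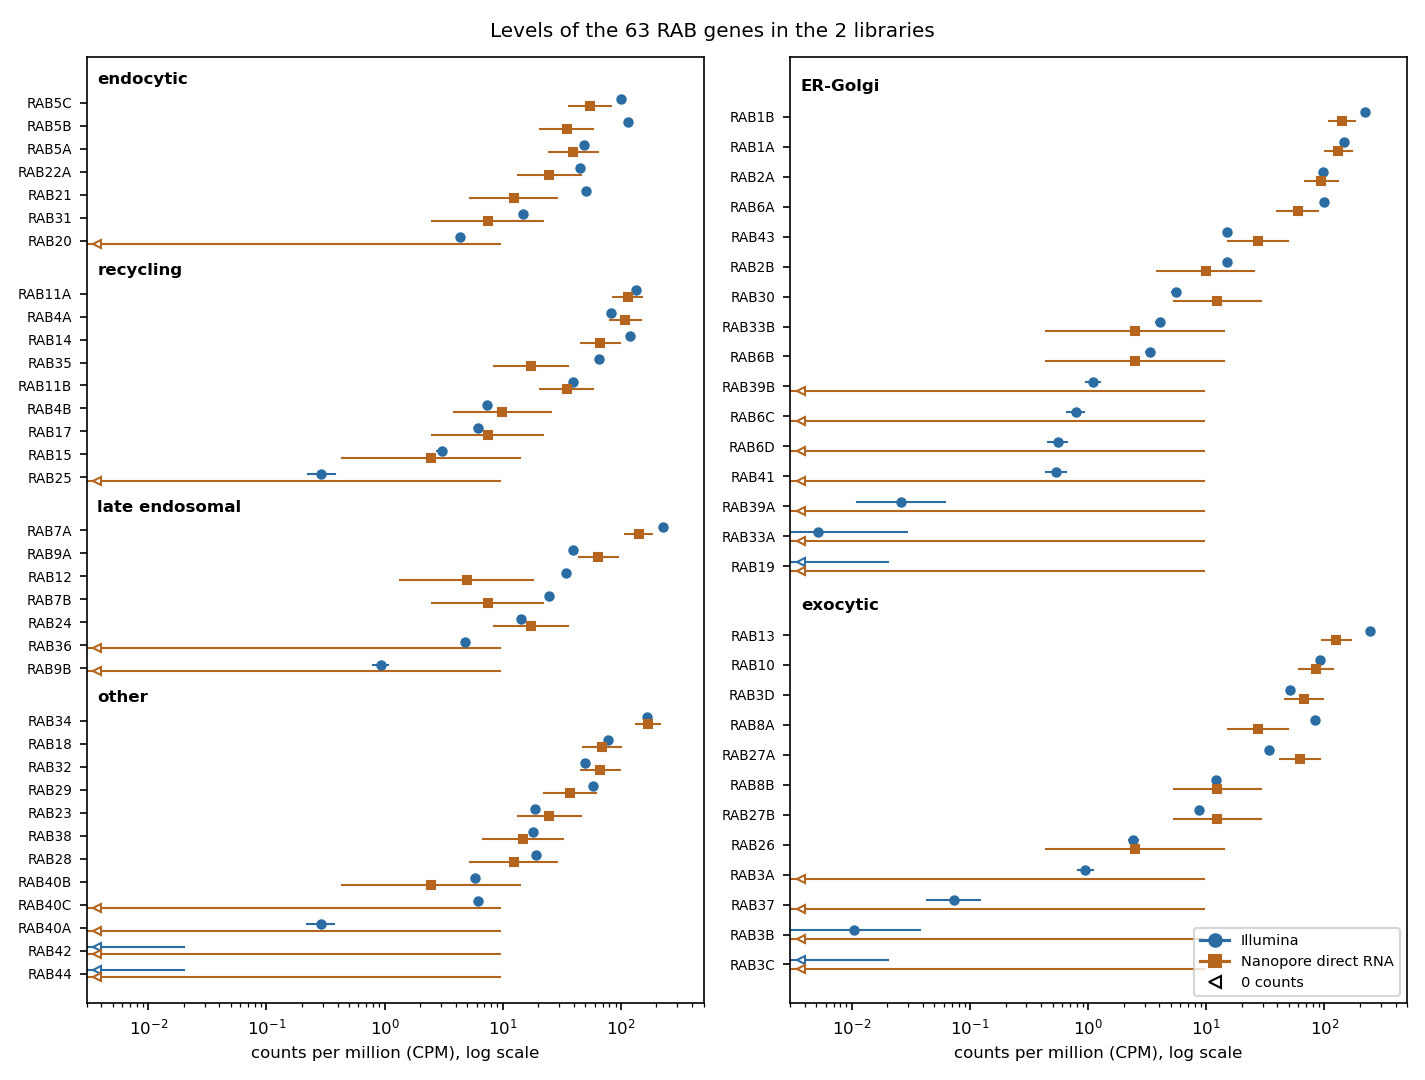
Level of each of the 63 RAB genes in CPM (log scale) in the Illumina library (circles) and the Nanopore library (squares), grouped by class, with 95% Wilson intervals and open triangles at the left edge for 0 counts, whose bars end at the Wilson upper limit (9.53 CPM by Nanopore) and not at the limit of 3 counts. The Nanopore intervals are wide because the highest member has 68 counts, and RAB25 sits far below RAB11A in the recycling class.

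RAB25 was among the lowest expressed members. RAB25 (ENSG00000132698, chromosome 1, 156061160 to 156070504, hg38) had 0 Nanopore counts and 56 Illumina counts. The Illumina level was 0.292 CPM (95% Wilson interval 0.225 to 0.379), and 0.118 Nanopore counts would be expected from it. Its body overlaps no other annotated gene. Its relatives were high: RAB11A (ENSG00000103769, chromosome 15, 65726054 to 65891989) had 46 Nanopore and 25681 Illumina counts, and RAB11B (ENSG00000185236, chromosome 19, 8389981 to 8404434) had 14 and 7511. For a comparison of levels between genes the Illumina values were taken per length, as TPM (transcripts per 1000000), the Illumina counts divided by the union of a gene's annotated exons. RAB11A was at 63.9 TPM, RAB11B at 46.0 TPM and RAB25 at 0.468 TPM, so RAB11A was 136 times and RAB11B 98.1 times as high as RAB25. With the mean length of the annotated transcripts as divisor these ratios were 296 and 123. The epithelial member RAB17 (chromosome 2) lay between, with 3 Nanopore and 1190 Illumina counts and 3.53 TPM, 7.54 times the level of RAB25. In the order of all members by TPM, RAB11A was number 11, RAB11B number 16, RAB17 number 39 and RAB25 number 53. In RNA from a whole culture, few cells with RAB25 and a low level in each cell cannot be told apart. Whether RAB25 was lower than before tamoxifen cannot be read from these libraries.

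The RAB25 promoter is shown because the cells carry an activated Snail, and Snail proteins bind E-boxes of the sequence CAGGTG. This motif was searched on both strands in the RefSeq promoter table (GRCh38.p14), in windows of 300 bases that end 50 bases after the start site. Of the 50 members with such a window, 9 held it (18.0%), against 20.6% of all 35116 windows. RAB25 held 2 matches, starting at −41 and 37 from the start site, and RAB17 held 3. At least 2 matches were in 3.49% of all windows and at least 3 in 0.635%. The 250 bases before the RAB25 start, on the plus strand at chr1:156060910-156061159, hold the first of the 2 matches, in capitals.
RAB25: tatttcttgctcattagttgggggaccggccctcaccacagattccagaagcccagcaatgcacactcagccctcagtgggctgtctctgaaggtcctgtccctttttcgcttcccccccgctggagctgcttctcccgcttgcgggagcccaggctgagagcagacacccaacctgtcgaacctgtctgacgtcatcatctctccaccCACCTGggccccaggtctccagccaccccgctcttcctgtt
A match describes letters in a window and no binding was measured. RAB19, listed at 0 in both libraries, also held 3 matches, while RAB11A and RAB11B held none. The other members with a match held 1 each: RAB3B, RAB4A, RAB5B, RAB5C, RAB18 and RAB22A. RAB3B had 2 Illumina counts, and the rest of these had between 8576 (RAB22A) and 21958 (RAB5B). Whether a match goes with the level of a gene was not tested.

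The recycling class, which returns cargo from endosomes to the surface, had 9 members, of which 8 were detected by Nanopore and 9 by Illumina. RAB4A (chromosome 1, 229271062 to 229305894), which serves fast recycling, had 44 Nanopore and 15729 Illumina counts, 109 CPM (81.3 to 146) against 82.0 CPM. RAB14, of endosomes and the trans-Golgi, had 27 Nanopore and 22774 Illumina counts. RAB35, another fast-recycling GTPase, had 7 and 12416. Per length, RAB14 (68.5 TPM), RAB4A (67.1 TPM) and RAB11A led the class by Illumina, close to each other. Their order was RAB11A (135.8 TPM), RAB4A (66.0 TPM) and RAB14 (53.3 TPM), with RAB35 (58.2 TPM) and RAB11B (56.4 TPM) between the last 2, when the mean transcript length was the divisor. RAB15 had 1 Nanopore and 581 Illumina counts, and RAB4B had 4 and 1408. RAB4B shares exons with the readthrough genes RAB4B-EGLN2 and MIA-RAB4B, and 40.1% of its 50-base words occur in another gene, so its counts are uncertain.

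In the endocytic class, which takes cargo in from the plasma membrane, 6 of 7 members were detected by Nanopore. The 3 isoforms of RAB5, the GTPase of early endosomes, were all expressed. RAB5A had 16 Nanopore and 9305 Illumina counts, RAB5B 14 and 21958, and RAB5C 22 and 19205. Per length RAB5C led the 3 by Illumina, with 98.3 TPM against 47.5 TPM for RAB5B and 34.9 TPM for RAB5A. By Nanopore their levels of 54.6 CPM (36.0 to 82.6), 34.7 CPM (20.7 to 58.3) and 39.7 CPM (24.4 to 64.5), in the order RAB5C, RAB5B, RAB5A, did not differ beyond counting error. RAB22A, which sorts cargo in endosomes, had 10 Nanopore counts, RAB21, which binds integrins, had 5, and RAB31 had 3. RAB20 had 0, against 835 Illumina counts.

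In the late endosomal class, RAB7A (chromosome 3, 128693669 to 128825942), the GTPase that drives fusion with lysosomes, had 57 Nanopore and 43325 Illumina counts, the most of the class. RAB9A, which returns receptors from late endosomes to the Golgi, had 26 and 7551. RAB7B had 3 and 4676, RAB24, which is linked to autophagy, 7 and 2719, and RAB12, which sends transferrin receptor to lysosomes, 2 and 6565. RAB36 and RAB9B had no Nanopore count and 920 and 178 Illumina counts. Per length RAB7A, at 85.1 TPM by Illumina, also led the class, before RAB9A at 50.5 TPM.

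Secretory members, the ER-Golgi class and the exocytic class together, held 42.8% of RAB counts by Nanopore and 41.6% by Illumina. They are 28 of the 63 members, and these shares were not adjusted for class size. Of the 28, 17 were detected by Nanopore and 26 by Illumina. RAB1B (ENSG00000174903, chromosome 11, 66268590 to 66277492) and RAB1A (ENSG00000138069, chromosome 2, 65070696 to 65130331) control the first step from ER to Golgi. They had 57 and 53 Nanopore counts, and 41921 and 28263 Illumina counts. RAB2A, of the same early pathway, had 38 and 18821 counts, and RAB6A, of transport within and from the Golgi, was given above. The other ER-Golgi members with Nanopore counts were RAB43 (11), RAB30 (5), RAB2B (4), RAB33B (1) and RAB6B (1), with Illumina counts between 643 (RAB6B) and 2891 (RAB43). In the exocytic class RAB13 (ENSG00000143545, chromosome 1, 153981617 to 153986358), which moves junction proteins to the surface of epithelial cells, had 51 Nanopore and 46522 Illumina counts. RAB10, of polarized and insulin-driven exocytosis, had 34 and 17580. RAB3D, the member of the RAB3 group known outside neurons, had 27 and 9814 and was the one RAB3 gene detected by Nanopore. RAB8A had 11 and 15927 counts, RAB27A, which docks secretory lysosomes and exosome-forming bodies, 25 and 6495, and RAB27B 5 and 1676. RAB8B had 5 and 2316 counts, and RAB26 had 1 and 462, the lowest Illumina count of any member seen by Nanopore.

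The class named other holds members with other or mixed roles. RAB34 (ENSG00000109113, chromosome 17, 28714281 to 28718429), which acts in cilium formation and lysosome position, had the highest Nanopore count of all members, 68, with 31839 Illumina counts. RAB32, a GTPase of melanosomes and other lysosome-related organelles, had 27 and 9528, and its relative RAB38 had 6 and 3430. RAB18, of ER and lipid droplets, had 28 and 15037 counts, and RAB29, a Golgi partner of the kinase LRRK2, 15 and 11145. RAB23, a regulator of Hedgehog signalling, had 10 and 3617. RAB28 had 5 and 3665 counts and RAB40B 1 and 1116.

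Across the whole family a few members dominated, and both libraries named mostly the same ones. By Illumina TPM per union length the order began with RAB1B (303.7), RAB13 (238.9), RAB34 (136.2), RAB32 (126.4) and RAB1A (120.5), which held 44.5% of all RAB TPM. With mean transcript length as divisor it began with RAB13 (236.7), RAB34 (211.1), RAB1B (181.5), RAB7A (155.4) and RAB11A (135.8). RAB1A was then number 8 and RAB32 number 17, at 56.0 TPM. By Nanopore counts the order began with RAB34, RAB7A and RAB1B, RAB1A and RAB13, which held 34.7% of RAB counts. The intervals of these 5 Nanopore levels overlap, from 168.6 CPM (133.0 to 213.8) for RAB34 to 126.5 CPM (96.2 to 166.3) for RAB13, so their order is not resolved. Of the 10 highest by Nanopore, 7 were among the 10 highest by Illumina TPM. Over the 44 members detected in both libraries the rank correlation (Spearman's rho) of the levels in CPM was 0.880, a value across genes of the same 2 libraries.

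By counts, which are not divided by length, the Illumina shares of the endocytic class and of the class named other lay outside the Nanopore intervals and those of the other classes inside them. The 63 members held 824 Nanopore counts, 0.204% of the library (95% Wilson interval 0.191 to 0.219%), and 524141 Illumina counts, 0.273%. Per union length the Illumina share was 0.208%, inside the Nanopore interval. Secretory members, 28 of the 63, held 42.8% of the RAB counts by Nanopore (39.5 to 46.2%) and 41.6% by Illumina. The recycling class held 17.7% by Nanopore (15.3 to 20.5%) and 16.7% by Illumina, of which the RAB11A, RAB11B and RAB25 subfamily made up 7.28% and 6.34% of all RAB counts. The late endosomal class held 11.5% (9.52 to 13.9%) and 12.6%. The endocytic class held 8.50% by Nanopore (6.78 to 10.6%) and 13.8% by Illumina, outside the Nanopore interval. Per length the Illumina share of the endocytic class was 10.4%, inside that interval, and with mean transcript length as divisor it was 13.5%, outside it. The class named other held 19.4% by Nanopore (16.9 to 22.3%) and 15.4% by Illumina, and 18.8% per length. Per union length it was the recycling share, 14.4%, and the ER-Golgi share, 26.62% against a Nanopore interval of 20.77 to 26.56%, that lay outside.

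**Figure D2:**
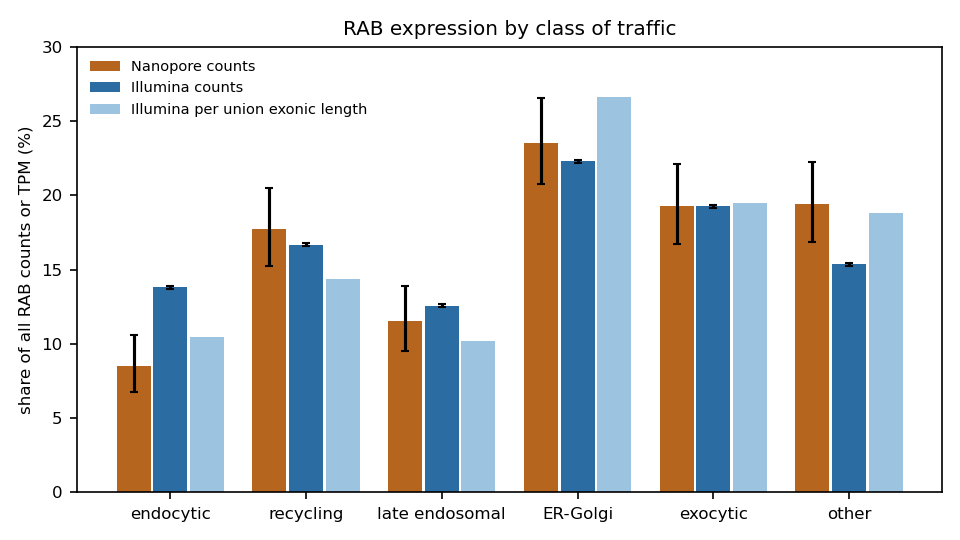
Share of all RAB counts held by each class in the Nanopore library and in the Illumina library, and share of RAB TPM with Illumina counts divided by union exonic length, in percent, with 95% Wilson intervals on the count shares. The ER-Golgi class, with 16 of the 63 members, holds the largest share in each of the 3 sets of bars, 23.5%, 22.3% and 26.6%. The endocytic bar, with 7 members, is lowest by Nanopore at 8.50%.

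Within groups of close relatives both libraries named the same leading gene in most cases. RAB11A made up 76.7% of RAB11A plus RAB11B counts by Nanopore (64.6 to 85.6%) and 77.4% by Illumina. It made up 58.2% of their TPM per union length, below the Nanopore interval, and 70.6% with mean transcript length as divisor, inside it. RAB4A made up 91.7% of RAB4A plus RAB4B by Nanopore (80.5 to 96.7%) and 91.8% by Illumina. RAB27A made up 83.3% of RAB27A plus RAB27B (66.4 to 92.7%) and 79.5%. RAB32 made up 81.8% of RAB32 plus RAB38 by Nanopore (65.6 to 91.4%) and 73.5% by Illumina. RAB1A made up 48.2% of RAB1A plus RAB1B by Nanopore (39.1 to 57.4%), 40.3% of the Illumina counts, inside that interval, and 28.4% of their TPM, below it. RAB5A made up 53.3% of RAB5A plus RAB5B by Nanopore (36.1 to 69.8%) and 29.8% of the Illumina counts, below that interval, but 42.3% of their TPM, inside it. RAB8A made up 68.8% of RAB8A plus RAB8B by Nanopore (44.4 to 85.8%) and 87.3% by Illumina, above that interval.

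The second comparison was which members differed in level between the libraries. Given the library totals, the 2 counts of a gene were set against each other in an exact conditional binomial test, for all 12414 genes whose 2 levels averaged 5 CPM or more. A call needed a Benjamini-Hochberg adjusted p below 0.05 together with a 4-fold or larger difference on the log2(CPM + 1) scale, which understates differences of rare genes. Of the 63 members 39 passed the filter, with a median of 14 Nanopore and 9528 Illumina counts. None of the 39 was called higher by Nanopore, where 12.9% of all tested genes were, and 1, RAB12, was called higher by Illumina (2.56%), where 7.31% of all tested genes were. Among protein-coding genes these shares were 4.74% and 7.73%. By adjusted p alone 1 member was higher by Nanopore (2.56%, against 20.2% of all tested genes) and 12 were higher by Illumina (30.8%, against 27.2%), with 11.8% and 30.9% among protein-coding genes. That imbalance rests on the scale: with the Illumina counts divided by union exonic length 9 were higher by Nanopore (23.1%, against 31.2%) and 6 by Illumina (15.4%, against 10.6%). With mean transcript length as divisor 6 were higher by Nanopore (15.4%, against 23.7%) and 6 by Illumina (against 15.8%). In all, 82.1% of the tested members lay within 2-fold in CPM, against 50.5% of all tested genes. These shares were 69.2% against 54.0% per union length and 66.7% against 57.0% per mean transcript length. All members are protein-coding, as are 10498 of the 12414 tested genes. The shares within 2-fold were not taken over protein-coding genes alone. The median log2 ratio of Nanopore over Illumina was −0.23 for the members (range −2.56 to 1.05), −0.42 for all tested genes and −0.58 for protein-coding genes. In the same order these medians were 0.18, 0.42 and 0.32 per union length. Per mean transcript length they were −0.18, 0.07 and −0.08. The members thus lay above both backgrounds in CPM and below both with either length.

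RAB12 (ENSG00000206418, chromosome 18, 8609437 to 8639383) was the one called member. Its 2 Nanopore counts made 4.96 CPM (1.36 to 18.1), against an Illumina level of 34.2 CPM (33.4 to 35.1), where 13.8 Nanopore counts would be expected. The log2 ratio of −2.56 had an exact binomial p of 0.000796 after Benjamini-Hochberg adjustment. The ratio was −2.69 with the Illumina counts divided by union exonic length and −2.43 with mean transcript length. With a pseudocount of 5 CPM it was −1.98, under 4-fold, and with a filter of 20 CPM the gene was not tested. One lncRNA gene overlaps it on the other strand, with 1 Nanopore and 285 Illumina counts.

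The other 11 members higher by Illumina at an adjusted p under 0.05 were RAB1B, RAB5B, RAB5C, RAB6A, RAB7A, RAB7B, RAB8A, RAB13, RAB14, RAB21 and RAB35. With RAB12 they included 3 of 6 tested endocytic, 2 of 7 recycling, 3 of 5 late endosomal, 2 of 7 ER-Golgi and 2 of 7 exocytic members, and none of 7 in the class named other. Of these 12, 5 were also higher by Illumina per union length (RAB1B, RAB5C, RAB12, RAB13 and RAB35) and 6 per mean transcript length (RAB5B, RAB5C, RAB8A, RAB12, RAB13 and RAB35). RAB5B was at 34.7 CPM by Nanopore and 114.5 CPM by Illumina, with a log2 ratio of −1.69 and an adjusted p of 3.51e-07 by the exact binomial test. Per union length RAB5B was at −0.44 and no longer passed (exact binomial test, adjusted p 0.437). RAB13 was at 126.5 and 242.6 CPM, with a ratio of −0.93 and an adjusted p of 1.58e-06 by the same exact test. RAB35 was at 17.4 CPM (8.41 to 35.8) and 64.8 CPM, a ratio of −1.84, and RAB21 at 12.4 CPM (5.30 to 29.0) and 50.6 CPM, a ratio of −1.94. Per union length the ratio of RAB21 was 0.49, so its direction turned. RAB7A was at 141 CPM (109 to 183) and 226 CPM, a ratio of −0.67. Per union exonic length its ratio was 0.73, so its direction was opposite, with an adjusted p of 0.00173 by the exact binomial test.

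RAB27A was the one member higher by Nanopore in CPM by adjusted p, at 62.0 CPM (42.0 to 91.5) against 33.9 CPM (33.1 to 34.7). The log2 ratio of 0.85 had an exact binomial p of 0.0184 after Benjamini-Hochberg adjustment. The ratio was 2.79 with union exonic length and 1.504 with mean transcript length as divisor. Its union of exons is 11345 bases and its mean transcript 1916 bases. Its exons overlap those of PIGB on the other strand, with 15 Nanopore counts, and of PIGBOS1 on its own strand, with 9. Their part in the result was not tested. RAB9A, at 64.5 against 39.4 CPM, missed the threshold with an adjusted p of 0.0511 by the exact binomial test, and passed it with TMM scaling (0.0289). RAB11A and RAB11B did not pass the threshold in CPM. RAB11A was at 114.1 CPM (85.5 to 152.1) by Nanopore and 133.9 CPM (132.3 to 135.6) by Illumina, a ratio of −0.23. RAB11B was at 34.7 CPM (20.7 to 58.3) and 39.2 CPM, a ratio of −0.17, and their exact binomial adjusted p-values of 0.426 and 0.875 missed the threshold. Per union length RAB11A was higher by Nanopore, with a ratio of 0.83 and an exact binomial adjusted p of 0.00147, and per mean transcript length its ratio was −0.25. RAB11B was at −0.39 and −0.68 with these lengths, and passed the threshold with neither.

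**Figure D3:**
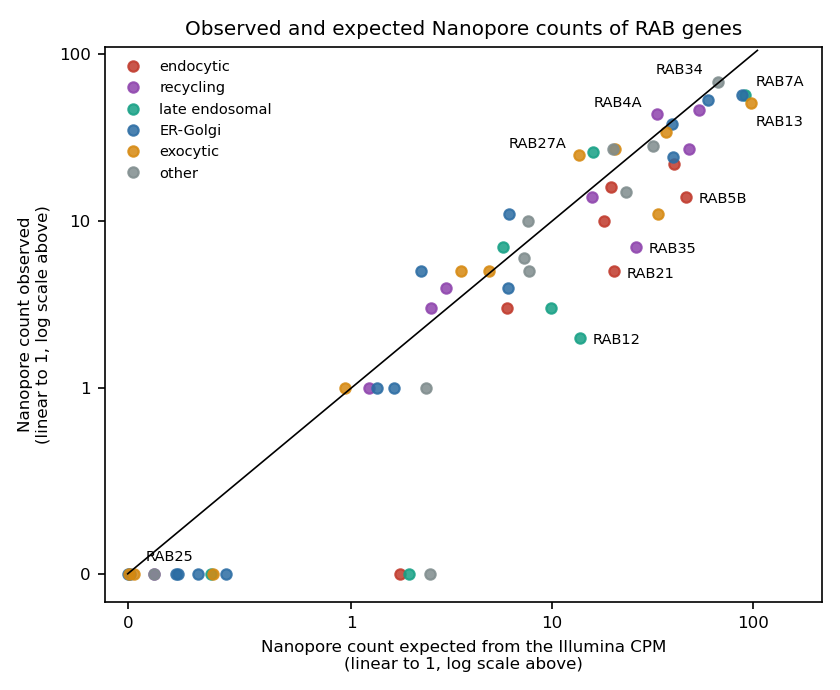
Observed Nanopore count of each RAB gene detected by Illumina against the count expected from its Illumina CPM at the Nanopore total, both axes linear up to 1 and logarithmic above, with colours for the classes and the line of equality. RAB34 lies on the line, RAB27A above it, and RAB12, RAB21, RAB35 and RAB5B well below it.

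Division of the Illumina counts by length changed which members differed, but gave few calls. With union exonic length 3 members, RAB18, RAB27A and RAB30, were called higher by Nanopore (7.69%, against 15.1% of 12350 tested genes) and RAB12 higher by Illumina (2.56%, against 3.09%). With mean transcript length RAB43 was the one called higher by Nanopore (2.56%, against 13.5%) and RAB12 the one called higher by Illumina (against 3.40%). By adjusted p alone RAB3D, RAB4A, RAB27A, RAB30 and RAB43 were higher by Nanopore with both lengths. RAB2A, RAB7A, RAB11A and RAB18 were so per union length only, and RAB23 per mean transcript length only. RAB18, at 69.4 CPM by Nanopore and 78.4 CPM by Illumina, shows how much the length used matters. Its union of exons over 45 annotated transcripts is 14362 bases and its mean transcript length 1676 bases, and its log2 ratio was −0.17 in CPM, 2.16 with the first length and 0.30 with the second. The CPM ratio of the 39 members did not follow length, with a Spearman's rho of −0.0083 between log2 ratio and union exonic length. Over all 12350 tested genes with a length that rho was −0.438, and over protein-coding ones −0.330. Once the Illumina counts were divided by union length, the rho of the 39 members was 0.681, so longer members had higher ratios on that scale. The median union length of the tested members was 4018 bases and that of all tested genes 4886.5 bases.

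**Figure D4:**
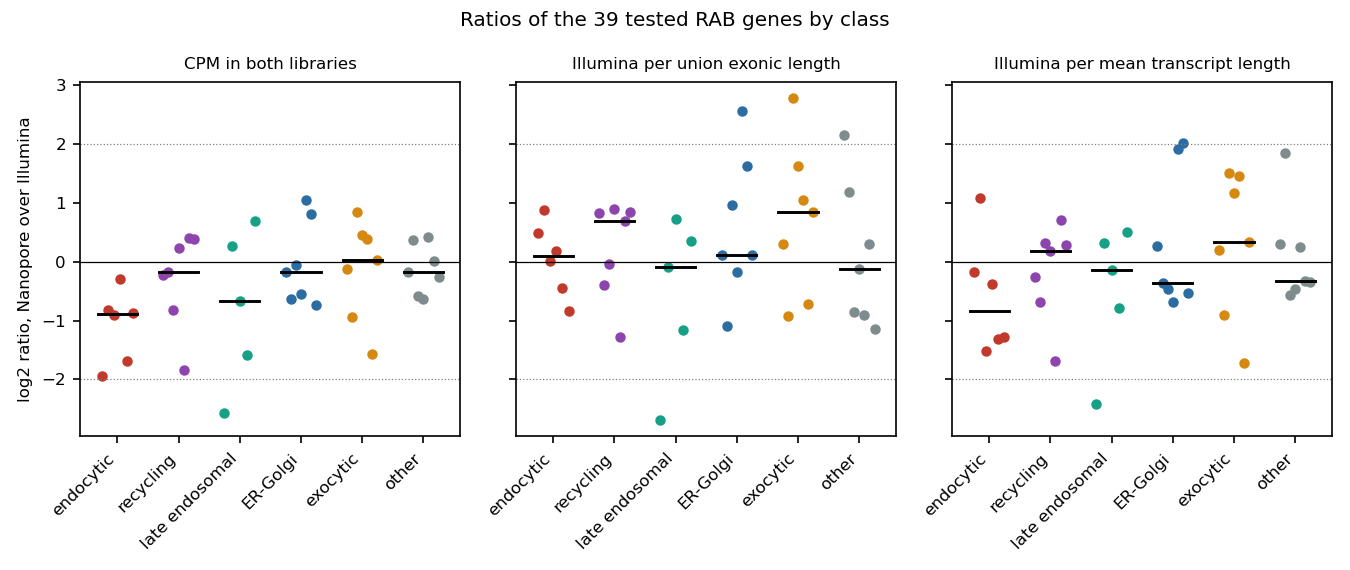
Log2 ratio of Nanopore over Illumina for the 39 tested RAB genes by class (points) with class medians (bars), for CPM in both libraries and for Illumina counts divided by union exonic length or by mean transcript length, with dotted lines at 4-fold. The endocytic median moves from −0.89 to 0.10 and back to −0.83, and RAB12 is the lowest point in each panel.

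Overlapping genes bear on several members. The bodies of 46 of the 63 members overlap another annotated gene, and the exons of 22 of the 39 tested ones do. In the Nanopore table some overlapped genes carried the same count as the member, also on the other strand. RAB1B had 57 Nanopore counts and so did each of 2 lncRNA genes on the other strand that overlap its exons, while their Illumina counts were 41921, 6204 and 4519. RAB8A and the antisense gene ENSG00000269243 both had 11 Nanopore counts. RAB27B and its antisense gene ENSG00000267112 both had 5, against 1676 and 17 Illumina counts. RAB3D had 27, while TMEM205 on its own strand and CCDC159 on the other, which each share 144 exonic bases with it, had 24 each. RAB13 had 51, and the protein-coding gene ENSG00000285641, which shares 682 exonic bases with it on its own strand, had 125 Nanopore and 30202 Illumina counts. RAB5C had 22, and ENSG00000267261, with 794 shared exonic bases on the same strand, had 23 Nanopore and 7703 Illumina counts. How far the counts of these pairs come from the same reads was not tested. The median log2 ratio was −0.23 for the 22 tested members with overlapped exons and −0.23 for the 17 without.

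RAB43 and RAB23 share long stretches with other genes as well. RAB43 had 11 Nanopore and 2891 Illumina counts, and the readthrough gene ISY1-RAB43, which holds 77.8% of its 50-base words, had 18 and 8745. RAB23 had 10 and 3617 counts, and BAG2, on the other strand with 2842 shared exonic bases, had 20 and 9675. Among members whose body overlaps no other gene are RAB9A, RAB18, RAB25, RAB29, RAB32 and RAB34. None of the 63 canonical transcripts had a copy on one of 261 alternate contigs of hg38.

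The genes that act on RAB proteins were compared in the same way, from 4 lists with 132 matched genes, of which 118 were tested. One was called higher by Nanopore (0.847%, against 12.9% of all tested genes) and 11 were called higher by Illumina (9.32%, against 7.31%). Among protein-coding genes the shares were 4.74% and 7.73%. With union exonic length as divisor 11 were called higher by Nanopore (9.32%, against 15.1%) and none higher by Illumina (against 3.09%). By adjusted p alone in CPM 40 were higher by Illumina (33.9%, against 27.2% of all tested and 30.9% of protein-coding genes). On the same terms 3 were higher by Nanopore (2.54%, against 20.2% and 11.8%).

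Lipid attachment and escort genes were all detected in both libraries, 12 of 12, and none was called. GDI2, which extracts GDP-bound RAB proteins from membranes, was the highest per length, at 236.7 TPM by Illumina, with 85 Nanopore and 65646 Illumina counts, 210.8 against 342.4 CPM. ARL6IP5, a membrane protein of the PRA1 family, had 63 and 17039 counts, 156.2 against 88.9 CPM. RABGGTA and RABGGTB, the subunits of the enzyme that attaches the lipid, had 15 and 24 Nanopore counts and 7384 and 23374 Illumina counts. The median log2 ratio of the list was −0.16.

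Exchange factors had 35 of 40 members detected by Nanopore and a median log2 ratio of −0.75 over 35 tested. Of the 35 tested, 1 was called higher by Nanopore and 3 by Illumina, against 12.9% and 7.31% of all tested genes. TRAPPC1 and TRAPPC3, core subunits of the TRAPP complexes that activate RAB1, were the highest per length, at 268.5 and 68.8 TPM by Illumina, with 40 and 22 Nanopore and 22258 and 17171 Illumina counts. Called higher by Illumina were RGP1, part of the RAB6 exchange factor (3 and 10913 counts, log2 ratio −2.78), GAPVD1, which acts on RAB5 (5 and 10152 counts, −2.01), and HPS4, of the exchange factor for RAB32 and RAB38 (2 and 4414 counts, −2.01). DENND2A was called higher by Nanopore on 4 Nanopore and 67 Illumina counts (log2 ratio 3.02), and its body overlaps 4 other genes.

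TBC GTPase-activating proteins had 28 of 31 members detected by Nanopore, with a median log2 ratio of −0.92 over 30 tested. Of the 30, 5 were called higher by Illumina, where 7.31% of all tested genes were. TBC1D9B had 12 Nanopore and 29010 Illumina counts, a ratio of −2.31, and TBC1D1, which acts on exocytic RAB proteins, had 9 and 13593, a ratio of −1.62. TBC1D22A, EVI5 and SGSM2 had 0 Nanopore counts and 3034, 2864 and 2798 Illumina counts, and TBC1D4 had 2 and 4954. Effectors had 45 of 49 members detected by Nanopore, with a median ratio of −1.22 over 41 tested. Beside 7.31% of all tested genes, 3 of the 41 were called higher by Illumina. These were OCRL, a phosphatase of endosomes and Golgi (2 and 9036 counts, −3.01), RAB11FIP1, which binds RAB11 and RAB25 (1 and 4160 counts, −2.71), and FYCO1, which links RAB7 to kinesin (1 and 3258 counts, −2.37). PLIN3, a lipid droplet protein that binds RAB9, was the highest of them per length, at 241.1 TPM by Illumina, with 64 and 46753 counts, and USO1, the tether recruited by RAB1, had 37 and 18026. The median union exonic length of the 118 regulators and effectors was 7813.5 bases, against 4018 for the tested RAB genes. With that length as divisor their median log2 ratio was 0.39, against −0.92 in CPM.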

How the data were processed

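Both libraries were analysed from the tables of raw counts per Ensembl gene that the authors deposited. The submitters' processing notes name minimap2 2.11-r797, HISAT2 2.1.0, featureCounts and hg38 without roles, and the options, the annotation release and the treatment of overlapping or multiply mapped reads are not given in the sources used here. The Nanopore column name has a suffix that no label explains. What was done to those reads before counting is not given in the sources used here. Names, types, positions and lengths came from GENCODE 44 (hg38), with 58207 of 58735 identifiers matched.

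Counts were scaled to CPM. An exact conditional binomial test (two-sided, double the smaller tail, SciPy 1.17.1) was run on genes whose 2 levels averaged 5 CPM or more, with Benjamini-Hochberg adjustment over all of them, a pseudocount of 1 CPM in ratios, and checks on simulated counts. Its p-values speak of these 2 libraries alone. Wilson intervals (95%) and the limit of 3 counts cover counting error only. Amplified Illumina reads are not independent molecules, and some overlapping genes carry equal Nanopore counts. TMM factors came from edgeR 4.0.16, and alternate contigs were searched with minimap2 2.31 at 80% of a transcript. The RAB classes, the lists and the tests were chosen with earlier results of these data known. Named were RAB25, RAB11A and RAB11B, the 3 members of highest mean CPM in each class, called members, members with 0 counts, and from each list of regulators up to 4 called genes and the 2 of highest mean CPM. Further members were named to complete a class, and the overlap examples, TBC1D4 and other regulators after their values were seen.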

Additional observations from a re-analysis of the deposited data

How the results depend on the processing

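RAB12 was called in 10 of 13 alternative settings. The number of members called higher by Illumina was 0 of 27 tested with a filter of 20 CPM. It was 0 of 39 with a pseudocount of 5 CPM and 0 among the 9 tested members that overlap no other gene. It was 2 of 39 with a pseudocount of 0.1 CPM, which added RAB21 at a log2 ratio of −2.02. At a 2-fold limit it was 6 of 39, and by adjusted p alone 12 of 39, against 27.2% of all tested genes. The number called higher by Nanopore was 3 of 39 per union exonic length, 1 per mean transcript length and 1 by adjusted p alone. Over all tested genes these shares were 15.1%, 13.5% and 20.2%. The share over all tested genes was not taken for the 2-fold limit, other filters or other pseudocounts, so those counts have no background here.

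Of the regulators and effectors, 68 were tested with 20 CPM, 17 without overlapping genes and 118 in the other settings given. The number higher by Nanopore was 0 with 20 CPM, 0 with a pseudocount of 5 CPM and 0 without overlapping genes. It was 11 per union length, 2 per mean transcript length, 2 at 2-fold and 3 by adjusted p alone. The number higher by Illumina was 4 with 20 CPM, 4 with a pseudocount of 5 CPM and 1 without overlapping genes. It was 0 with either length, 37 at 2-fold and 40 by adjusted p alone. Over all tested genes the shares higher by Nanopore were 15.1% per union length, 13.5% per mean transcript length and 20.2% by adjusted p alone. Those higher by Illumina were 3.09%, 3.40% and 27.2%. No such share was taken for the remaining settings.

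The median log2 ratio of the RAB genes was −0.36 without a filter and −0.10 with median-ratio scaling, which shifts all ratios by 0.13. Per union length it was 0.18, a reversed sign. The median of all tested genes also changed sign with that length, from −0.42 to 0.42. Signs were followed over all settings for 19 named RAB genes only. Among those of the 19 that pass the adjusted p with or without union length, this length reversed RAB2A (0.97), RAB7A (0.73), RAB11A (0.83), RAB18 (2.16) and RAB32 (−0.91). Mean transcript length reversed RAB14 (0.32). Outside the 19, RAB6A (0.11) and RAB21 (0.49) passed in CPM and also turned per union length. Among the 19, signs also turned with no value past the threshold for RAB1A (0.12), RAB5A (0.18) and RAB10 (0.31) per union length. Per mean transcript length this held for RAB1A (0.28), RAB10 (0.20), RAB18 (0.30) and RAB34 (−0.32). With other scalings it held for RAB2A (0.03 and 0.07, TMM and median ratio) and RAB10 (0.007, median ratio). At least 10 Nanopore counts were present for 25 members. Spearman's rho was 0.844 per union length and 0.841 per mean transcript length. Of 188 values of 19 named RAB genes over these settings, 161 kept their direction and side of the threshold.

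Illumina class shares per union length were 10.4% endocytic, 14.4% recycling, 10.2% late endosomal, 26.6% ER-Golgi, 19.5% exocytic, 18.8% other and 46.1% secretory. Per mean transcript length they were 13.5% endocytic, 16.05% recycling, 10.9% late endosomal and 17.9% other. Without the most abundant member of each class, Illumina shares were 16.9% endocytic, 19.5% recycling, 7.16% late endosomal, 23.7% ER-Golgi, 17.3% exocytic and 41.0% secretory, and Nanopore shares were 7.27% late endosomal and 46.8% secretory. Over members that overlap no other gene, Nanopore and Illumina shares were 5.32% and 9.72% endocytic, 0% and 0.0578% recycling, 15.4% and 13.6% late endosomal, 0% and 0.222% ER-Golgi, 3.19% and 2.87% exocytic, 76.1% and 73.6% other, and 3.19% and 3.09% secretory. These last shares rest on few genes, since that subset holds RAB34, RAB18 and RAB32.

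With 1 library per platform there is no replicate, and the Nanopore depth limits what can be seen: the median tested member had 14 counts, and 0 counts allow up to 7.44 CPM. No paired analysis was possible because each group has 1 library.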

Other observations

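Genes that carry RAB sequence but are no members were also listed with counts, and which gene the reads came from was not tested. ENSG00000237493, a processed pseudogene with 62.3% of its 50-base words in RAB13, had 1 Nanopore and 4856 Illumina counts. This pseudogene also shares 34 exonic bases with RAB5B, on the other strand. RAB1C, a processed pseudogene with 15.6% of its words in RAB1B, had 0 and 560 counts. RAB43P1, a processed pseudogene with 91.7% of its words in RAB43, had 0 and 139. RAB40AL, a protein-coding gene with 49.9% of its words in RAB40A, had 1 and 0, where RAB40A had 0 and 55.

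Some genes that overlap a member had more of their counts in the Nanopore table than their Illumina counts would give. PP2D1, on the strand opposite RAB5A with 103 shared exonic bases, had 15 Nanopore and 26 Illumina counts, beside 16 and 9305 for RAB5A. RAB5C-AS1, opposite RAB5C with 46 shared exonic bases, had 13 and 0, beside 22 and 19205. ENSG00000254698, an lncRNA gene on the strand of RAB30 with no shared exonic base, had 5 and 0, beside 5 and 1053 for RAB30. ENSG00000255241, an lncRNA gene opposite RAB38, had 5 and 6, beside 6 and 3430. The source of these counts was not tested.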
